A study of Macaca mulatta with 16 samples.

Results

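Complex I of the respiratory chain, NADH:ubiquinone oxidoreductase, was followed through the probe sets of its nuclear encoded subunits. Members were all probe sets whose platform gene symbol, alone or within a list of symbols, reads NDUF followed by A, B, C, S or V and digits and nothing more, together with those of NDUFAB1. This gave 64 of 44928 probe sets, for 36 of the 19044 gene symbols on the arrays: 39 probe sets of 31 genes on the U133A array and 25 probe sets of 17 genes on the U133B array, with 12 genes on both. Of these probe sets, 7 carry another gene symbol as well: for NDUFC2 the readthrough NDUFC2-KCTD14, for NDUFS8 microRNA genes, for NDUFS5 the ribosomal protein gene RPL10 and for NDUFS3 PTPMT1, so that their signal may be shared. By role the members are 6 of the 7 nuclear encoded core subunits of the matrix arm, 9 accessory subunits of the matrix arm, 20 accessory subunits of the membrane arm, and NDUFAB1.

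Complex I accepts electrons from NADH in the mitochondrial matrix, hands them through a flavin and a chain of iron-sulfur clusters to ubiquinone, and couples this to the pumping of protons across the inner membrane. The matrix arm holds the redox centres, and the membrane arm holds the proton channels, whose core subunits are encoded by mitochondrial DNA and are not among the members. Accessory subunits surround both arms and are needed for assembly and stability. Extraocular muscle, which moves the eye, is known for fibres rich in mitochondria, in particular in its outer, orbital layer.

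RNA came from extraocular muscle of adult rhesus macaques, with no strain, exact age or treatment given in the labels, and was hybridised to human arrays, so that probe sets can differ in how well they match the macaque transcript. The 4 groups were the orbital layer, the global (inner) layer, the lateral rectus and the medial rectus; layers were cut out with a laser, and the recti were taken as entire muscles. Each group had 2 arrays of either type, 16 arrays in all, and this number limits the precision of every value. Layer RNA was amplified with T7 polymerase, per the labels, and rectus RNA went through the standard Affymetrix protocol, so that tissue and RNA protocol cannot be told apart wherever layers are set against whole muscle. Nothing says that the arrays of a group came from separate animals or which regions share an animal, so the spread behind each p-value may be technical, and p-values over regions of shared animals would be too small.

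Arrays were grouped by title. On U133A, the array titled as orbital layer replicate 1 has a source name that gives the global layer; on U133B, the source name of global layer replicate 1 does not say which layer. Complex I medians between the layers, call counts for layers against recti and values of some genes are given below with and without these arrays. Values of other genes are given with all arrays only. For ACTB, the 3' probe set divided by the 5' one, a measure of how complete the labelled RNA is, was 5.30 and 5.87 in the orbital layer, 2.84 and 2.88 in the global layer and 0.716 to 1.04 in the recti on U133A. On U133B it was 5.29 and 4.43, 3.54 and 3.61, and 0.512 to 0.933. The ACTB ratio thus separated the layers from each other as well as from the recti. The same ratio for GAPDH did not separate the layers, and on U133A it overlapped between layers and recti. On U133A it was 1.73 and 2.00 in the orbital layer, 2.92 and 1.50 in the global layer and 0.947 to 1.66 in the recti. On U133B it was 2.49 and 3.74, 4.33 and 2.04, and 1.18 to 1.74. The array medians were 476 to 587 intensity units in the layers and 788 to 852 in the recti on U133A. Markers of skeletal muscle fibre were high in every group, with 9 of 9 measured on U133A and a summed intensity of 539167 to 630288 in the layers and 572935 to 733830 in the recti. On U133B TTN, the only 1 of them measured, did not overlap, at 9662 to 19413 in the layers and 4917 to 7498 in the recti. Of the other cell types, the summed intensity of the 4 smooth muscle markers on U133A was 11853 to 14817 in the layers and 5289 to 8471 in the recti, but that of the 3 measured on U133B ran the other way, at 4740 to 6058 and 6756 to 10913. The 5 leukocyte markers summed to 2106 to 2577 in the layers, 6202 to 7031 in the lateral rectus and 3011 to 3175 in the medial rectus. Of the 4 adipocyte markers on U133A, ADIPOQ, PLIN1 and LEP were at the floor on all layer arrays, and the sum, then mostly FABP4, was 1120 to 2155 in the orbital layer, 3352 to 6605 in the global layer and 3106 to 4890 in the recti. The part of these measures in the results below was not tested.

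Values are intensities in arbitrary units after scaling each array to a common trimmed mean, and differences are on the log2 scale with the standard error (SE) of limma. Probe sets differ in sensitivity, so levels are compared between groups within a probe set and never between probe sets. Where a gene had several probe sets, the one with the highest mean over the arrays compared represents it. All 36 genes kept at least 1 probe set above the intensity filter in every comparison, with 51, 52 and 49 of the 64 probe sets kept for the layers, for the recti and for layers against recti. Across the 8 arrays of a type, the highest value of a gene was between 1.44 and 4.64 times its lowest on U133A (median 2.01 over 31 genes) and between 1.64 and 4.13 times on U133B (median 3.57 over 10 genes). By the mean of log2 intensity, the global layer was the highest group in 17 of 31 genes on U133A, the orbital layer in 8, the lateral rectus in 4 and the medial rectus in 2. On U133B the global layer was highest in 6 of 10 genes, each rectus in 2 and the orbital layer in 0. The same count over all probe sets was not made, and it spans 2 RNA protocols. Global layer replicate 2 alone was the highest of the 8 arrays in 15 of 31 genes on U133A and 4 of 10 on U133B.

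**Figure D1:**
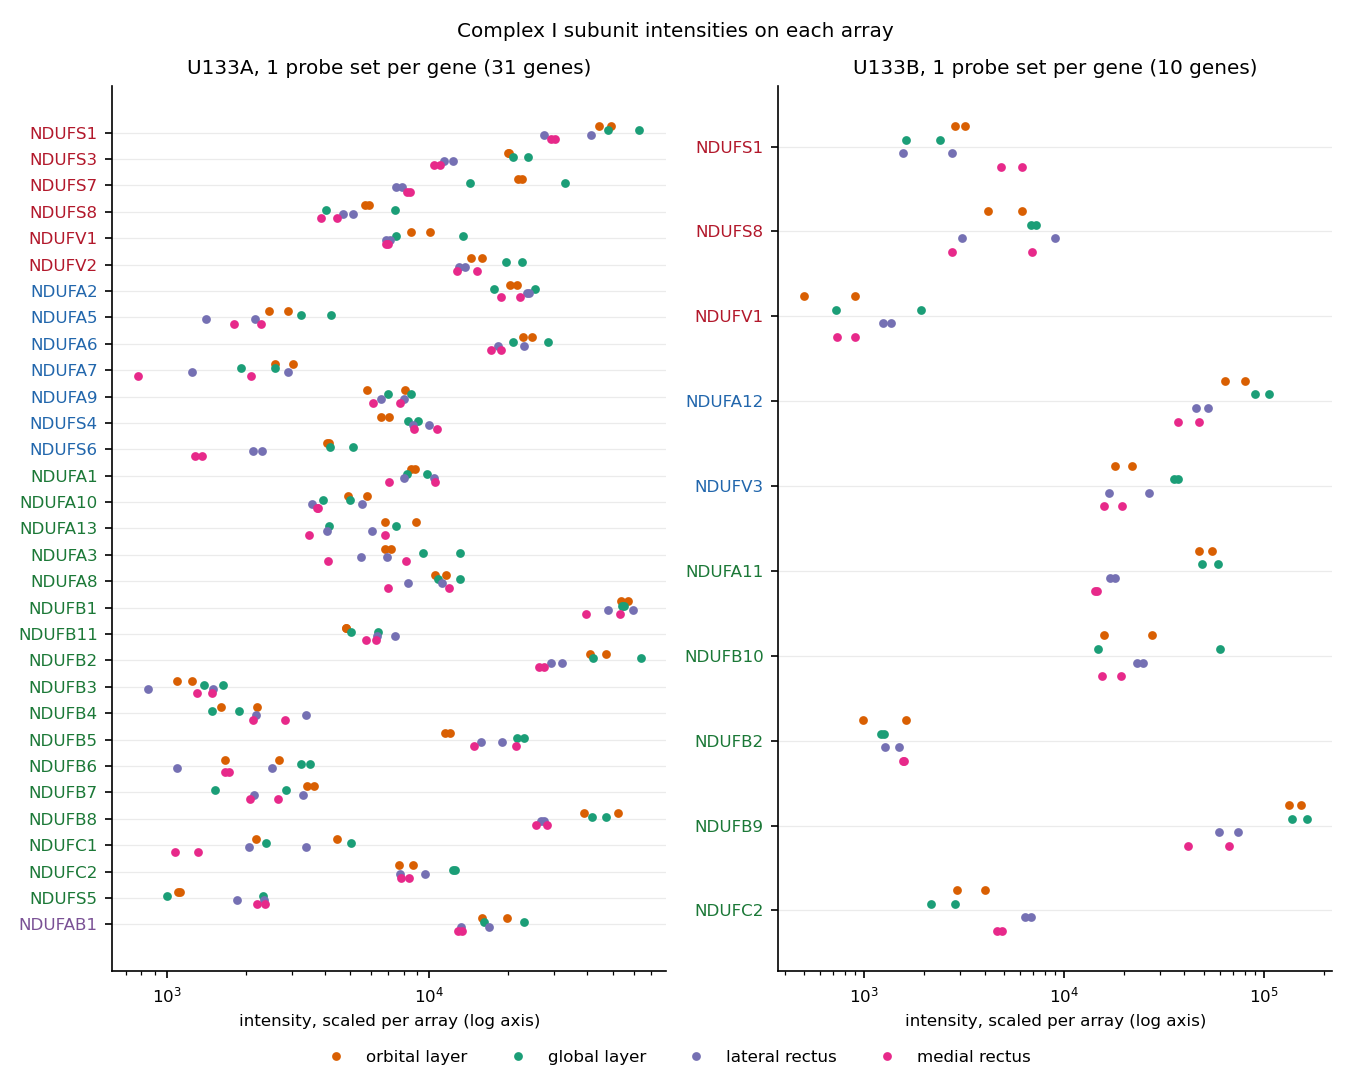
Intensity of each complex I gene on every array (log axis, arbitrary units after scaling per array), with 1 probe set per gene, U133A on the left and U133B on the right; points are single arrays, colours are the 4 groups, and gene names are coloured by role (red, core of the matrix arm; blue, accessory of the matrix arm; green, accessory of the membrane arm; purple, NDUFAB1). For NDUFS7 the 4 layer arrays lie between 14246 and 32763 and the 4 rectus arrays between 7492 and 8436, whereas for NDUFA9 the arrays of the 4 groups overlap.

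The first comparison asked how the orbital layer differs from the global layer. No complex I gene passed the threshold (adjusted p under 0.05, limma with Benjamini-Hochberg adjustment over all probe sets kept): 0 of 31 on U133A, where 0.409% of the 9532 probe sets tested passed (0.283% as higher and 0.126% as lower in the orbital layer), and 0 of 12 on U133B, where 0.0210% of 9510 passed. At an unadjusted limma p under 0.05 there were 3 of 31 genes on U133A, beside 905 of the 9532 probe sets tested. On U133B there was 1 of 12, beside 738 of 9510. In such bulk RNA, fewer cells of a type and less RNA per cell cannot be told apart. Of the 31 genes on U133A, 22 had a lower mean in the orbital layer and 9 a higher one, with a median difference of -0.15 against -0.04 over all probe sets tested. In 11 genes (35.5%) both orbital arrays lay below both global arrays, against 23.4% of all probe sets tested, and in 1 gene (3.23%) above, against 18.5%. On U133B 8 of 12 genes were lower in the orbital layer, with a median of -0.27 against 0.03 over all probe sets; both orbital arrays lay below in 4 genes (33.3% against 17.8%) and above in 3 (25% against 20.8%). NDUFS3 and NDUFV1 passed the U133B filter only through the global layer, where they were brighter. NDUFA10, 1 of the 3 genes with both orbital arrays above, passed it only through the orbital layer. It read 856 and 1044 there against 675 and 802 in the global layer. With no filter 8 genes on U133B were higher and 8 lower, with a median of 0.00.

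The sign of both medians rested on 1 array. Without global layer replicate 2 they were 0.01 on U133A, with 16 genes higher and 15 lower, and 0.06 on U133B. Without global layer replicate 1 the U133A median was -0.28, and without orbital layer replicate 1, whose labels disagree, it was -0.09. On U133B the median without global layer replicate 1, whose layer is not stated in its source name, was -0.32. Global layer replicate 2 was above replicate 1 in 24 of 31 genes on U133A, by a median of 0.30, whereas the median gap over all probe sets was -0.03. It was the highest of the 4 layer arrays in 19 of 31 genes and the highest of all 8 arrays in 15. In the orbital layer, replicate 2 was above replicate 1 in 12 of 31 genes, and the median of replicate 2 minus replicate 1 was -0.05. Between the layers the summed intensity of the 9 muscle fibre markers overlapped (564198 to 591506 in orbital and 539167 to 630288 in global arrays on U133A). That of the 6 fibroblast markers was 227973 to 260137 in the orbital and 193232 to 195412 in the global layer, and that of the 6 endothelial markers 13409 to 15053 and 17124 to 22281. On U133B the layers overlapped in both. The 4 fibroblast markers measured there summed to 12825 to 18302 and 13571 to 16782, and VWF alone read 202 to 286 and 198 to 224. The adipocyte sum, lower in the orbital layer on U133A, is given above, and on U133B FABP4 alone read 568 to 1688 in the orbital and 2681 to 4705 in the global layer. The ratio of ACTB probe sets was higher in the orbital layer on both tables, while that of GAPDH overlapped. The part of these measures in the differences was not tested.

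Among the core subunits of the matrix arm, 4 of 6 were lower in the orbital layer, and the median was -0.13. For NDUFV2, which carries an iron-sulfur cluster beside the NADH site, intensities were 15828 and 14484 in the orbital layer, compared with 19602 and 22496 in the global layer. Both orbital arrays were below both global arrays, and the difference of -0.47 ± 0.22 had a limma adjusted p of 0.554. NDUFV1, which binds NADH and the flavin, gave 8555 and 10108 against 7449 and 13511, so that the groups overlapped (-0.11 ± 0.32). NDUFS7, which holds the last iron-sulfur cluster before ubiquinone, read 21778 and 22519 on the orbital arrays but 14246 and 32763 on the global ones. The difference was 0.04 ± 0.36, and the 2 global arrays stood on either side of the orbital ones; leaving out global layer replicate 1 made it -0.57 and leaving out replicate 2 made it 0.64. NDUFS1, NDUFS3 and NDUFS8, which carry or hold further parts of the electron path, differed by -0.24 ± 0.21, -0.15 ± 0.21 and 0.08 ± 0.32. Of these, NDUFS3 alone had its groups apart, at 20137 and 19908 against 20776 and 23730. On U133B, NDUFS3 gave -0.89 ± 0.52 and NDUFS8 -0.48 ± 0.29 with the orbital arrays below, NDUFS1 0.62 ± 0.33 with the orbital arrays above, and NDUFV1 -0.82 ± 0.66 with overlap, between -1.53 and -0.40 when 1 array was left out.

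Among the accessory subunits of the matrix arm on U133A, 6 of 7 were lower in the orbital layer (median -0.17). NDUFA5 gave 2447 and 2893 against 3259 and 4225 (-0.48 ± 0.27), and NDUFS4, a subunit whose loss causes Leigh syndrome, gave 7006 and 6552 against 8338 and 9056 (-0.36 ± 0.23). In both genes, and in NDUFS6 (-0.17 ± 0.25), the groups did not overlap. NDUFA7 was the exception in direction, at 3038 and 2583 against 1917 and 2590, with the groups overlapping (0.33 ± 0.27). NDUFV3, a small subunit at the NADH end of the arm, is measured on U133B. Its orbital arrays read 21890 and 18023 and its global arrays 37017 and 35634, with no overlap, 1.83-fold lower in the orbital layer (-0.87 ± 0.24, limma adjusted p = 0.450). NDUFA12, at 79874 and 63692 against 90532 and 105887, was apart in the same direction (-0.46 ± 0.25).

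The accessory subunits of the membrane arm held the largest differences in both directions on U133A. NDUFB5, a membrane-spanning subunit, read 11451 and 12021 in orbital RNA, compared with 21515 and 22994 in global RNA. The replicates lay close together in both layers, and the orbital layer was 1.90-fold lower (-0.92 ± 0.21, limma adjusted p = 0.210). This was the smallest adjusted p of the complex I genes on U133A, and it ranged from 0.106 to 0.548 over the alternative settings, with the difference between -0.97 and -0.87. Without orbital layer replicate 1 the difference was -0.89. In whole muscle NDUFB5 read 15747 and 18980 in the lateral rectus and 14774 and 21468 in the medial rectus. Under the scaling used, these lay above both orbital and below both global arrays. Layers and recti differ in RNA protocol, and this order depends on the normalization. The NDUFB5 difference of layers minus recti went from -0.12 to -0.64 with quantile normalization.

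NDUFA3 gave 7127 and 6785 in orbital arrays against 13126 and 9467 in global ones (-0.68 ± 0.25). NDUFB6 gave 2675 and 1666 against 3260 and 3528 (-0.68 ± 0.30), a difference of -0.34 without orbital layer replicate 2 and -1.03 without orbital layer replicate 1. NDUFC2, on its U133A probe set, gave 7694 and 8703 against 12322 and 12588 (-0.61 ± 0.23). All of them are small membrane-arm subunits whose orbital arrays lay below the global ones, with limma adjusted p between 0.455 and 0.529. NDUFB3 and NDUFB11 were apart in the same direction by -0.37 ± 0.27 and -0.24 ± 0.25. In the other direction, NDUFB7, a subunit on the intermembrane face, gave 3420 and 3657 in orbital arrays against 1526 and 2858 in global ones. It was the gene on U133A whose orbital arrays both lay above (0.76 ± 0.33, 1.69-fold, limma adjusted p = 0.530), and without global layer replicate 1 its difference was 0.31. NDUFA13 (0.48 ± 0.33) and NDUFA10 (0.27 ± 0.26) were also higher in mean, with overlapping arrays; without global layer replicate 1 the difference of NDUFA13 was 0.06, and without replicate 2 it was 0.91. NDUFAB1, the mitochondrial acyl carrier protein bound in both arms, gave 19788 and 15896 against 16200 and 23024 (-0.12 ± 0.26).

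**Figure D2:**
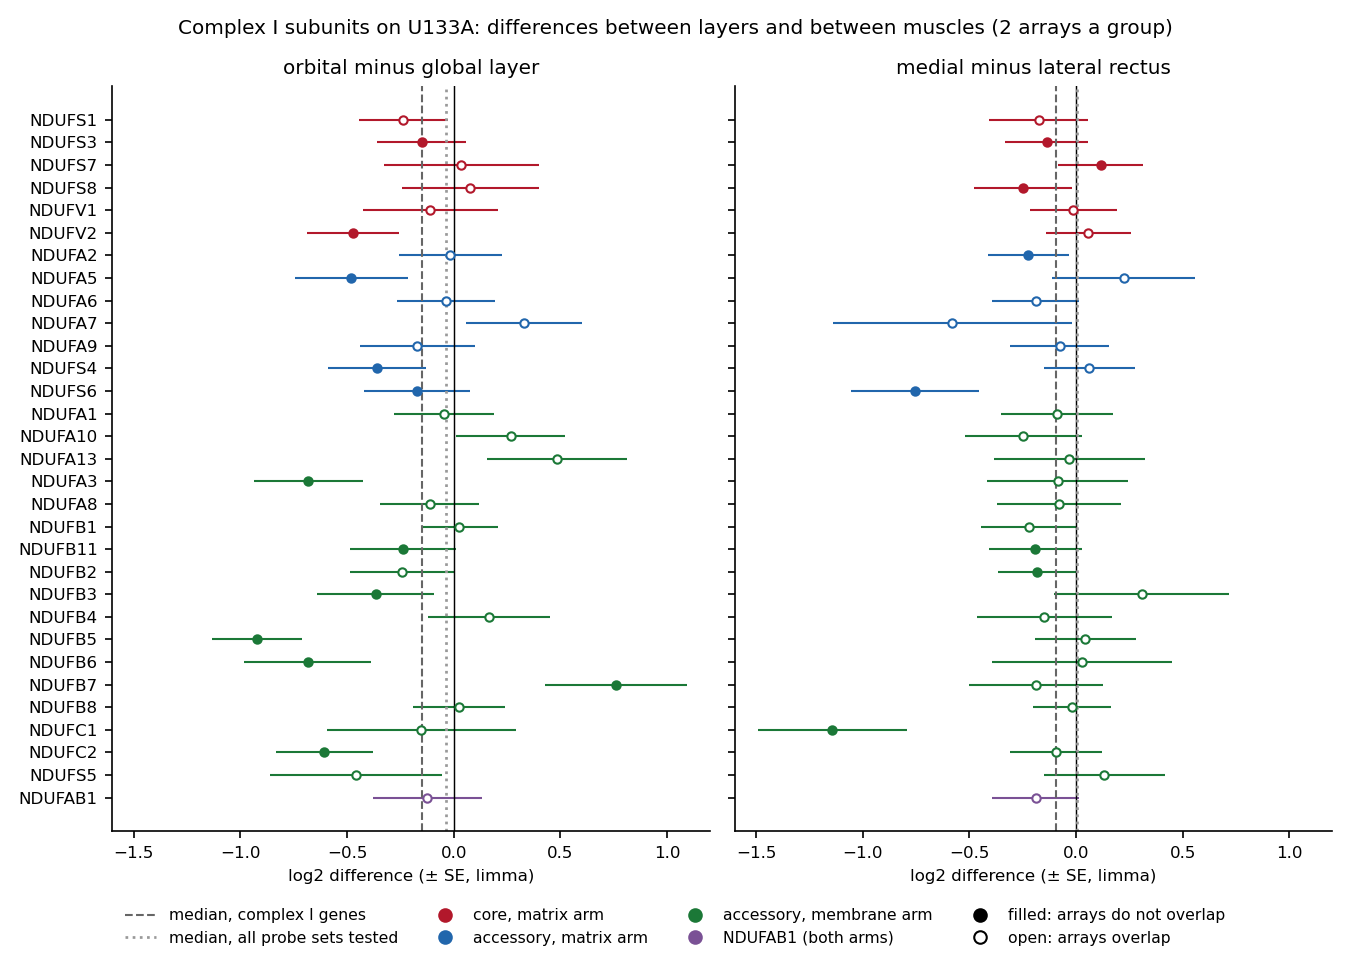
Log2 difference of each of the 31 complex I genes on U133A between the orbital and the global layer (left) and between the medial and the lateral rectus (right); points are limma estimates from 2 arrays a group, bars are standard errors, colours mark the role, and filled points are genes whose arrays do not overlap between the groups. NDUFB5 lies farthest to the left between the layers (-0.92 ± 0.21) and NDUFC1 between the recti (-1.14 ± 0.35), and no gene in either panel passed the threshold.

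The second comparison set the medial rectus, which turns the eye inward, against the lateral rectus, which turns it outward; RNA of both followed the same protocol. Here 0% of the 11907 probe sets on U133A and 0% of the 11836 on U133B passed the threshold in limma, complex I included, while 333 and 406 had an unadjusted p under 0.05. Of the complex I genes, 23 of 31 on U133A were lower in the medial rectus, with a median of -0.10 against 0.00 over all probe sets, and 8 of 12 on U133B, with a median of -0.27 against -0.03. Both medial arrays lay below both lateral arrays in 7 genes on U133A (22.6% against 13.6% of all probe sets tested) and above in 1 (3.23% against 15.0%). On U133B there were 4 below (33.3% against 16.8%) and 3 above (25% against 15.2%). Beside this, the leukocyte sum given above was higher in the lateral rectus. Of its 5 markers, CD14 was at the floor on both arrays of the lateral rectus and of no other group. The 3 red blood cell markers measured on U133A summed to 26541 to 33490 in the lateral and 9473 to 13497 in the medial rectus. On U133B ALAS2, the only one measured, overlapped, at 1242 to 3226 in the lateral and 2105 to 3410 in the medial rectus. The part of these markers was not tested.

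The largest difference on U133A was that of NDUFC1, a small membrane-arm subunit, which gave 3382 and 2060 in the lateral rectus and 1319 and 1082 in the medial rectus. Both medial arrays were below both lateral ones, 2.21-fold lower in mean log2 intensity (-1.14 ± 0.35). NDUFS6, a zinc-binding subunit of the matrix arm, gave 2315 and 2136 against 1278 and 1360. The replicates lay close together within either muscle, and the medial rectus was 1.69-fold lower (-0.75 ± 0.30). In limma both had an adjusted p of 0.999.

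Differences of the core subunits on U133A ran from -0.25 ± 0.23 for NDUFS8 to 0.12 ± 0.20 for NDUFS7, and 4 of 6 were lower in the medial rectus. Both medial arrays of NDUFS3 and NDUFS8 lay below the lateral ones, and those of NDUFS7 above. NDUFS1 disagreed between its probe sets. That on U133A read 41224 and 27277 in the lateral rectus and 30219 and 29152 in the medial rectus (-0.18 ± 0.23), while 229647_at on U133B read 2766 and 1566 against 6135 and 4833 (1.39 ± 0.39, limma adjusted p = 0.991). Without lateral rectus replicate 1 the U133A difference of NDUFS1 was 0.12. Of the accessory subunits on U133A, 5 of 7 in the matrix arm (median -0.19) and 13 of 17 in the membrane arm (median -0.09) were lower in the medial rectus. NDUFA2 had a difference of -0.22 ± 0.19 on its brighter U133A probe set, with the medial arrays below. Its dimmer probe set 209223_at, at 1404 and 1276 against 973 and 175, passed the filter only through the lateral rectus, and its difference of -1.70 ± 0.82 ran from -2.94 to -0.46 over the alternatives. On U133B NDUFA2 gave a difference of 0.90 ± 0.75 with overlap. NDUFA10 on U133B was higher in the medial rectus with arrays apart (1.11 ± 0.63), while on U133A it was -0.25 ± 0.27 with overlap.

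The third comparison set the 4 layer arrays against the 4 rectus arrays. Under the scaling used here, complex I genes were mostly brighter in the layers. In limma, 48.7% of all probe sets tested on U133A and 42.8% on U133B passed in either direction. Of the complex I genes on U133A, 7 of 31 passed as higher (22.6%, against 18.6% of the 10533 probe sets tested) and 1 as lower (3.23%, against 30.1%). On U133B 3 of 10 passed as higher (30%, against 20.5% of 10547) and 1 as lower (10%, against 22.3%). In mean, 24 of 31 genes on U133A and 6 of 10 on U133B were higher in the layers. The medians were 0.32 and 0.30, against -0.18 and -0.21 over all probe sets tested. Arrays were apart with the layers above in 8 genes on U133A (25.8% against 16.6%) and below in 0 (27.3% over all probe sets); on U133B they were above in 3 (30% against 19.1%) and below in 1 (10% against 21.6%). With 1 array left out, between 6 and 11 genes on U133A passed as higher, 6 without global layer replicate 2 and 11 without global layer replicate 1, and between 0 and 2 as lower.

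These counts changed with the normalization. With quantile normalization, which gives every array the same distribution, the median over all probe sets moved from -0.18 to 0.00 on U133A and from -0.21 to -0.04 on U133B. The complex I medians became 0.11 and -0.18. Then 4 genes on U133A passed as higher (NDUFS6, NDUFS7, NDUFA5 and NDUFB6) and 3 as lower (NDUFA2, NDUFS4 and NDUFB11), and on U133B 0 passed as higher and 3 as lower (NDUFC2, NDUFV3 and NDUFB10). For NDUFV3 the difference went from 0.48 to -0.76 and for NDUFB10 from 0.30 to -0.96, so that both turned sign. NDUFB10 is represented here by 223112_s_at. Its dimmer probe set 228301_x_at passed as higher under the same normalization (1.15, limma adjusted p = 0.0449). Of all calls on U133A, 38.3% were higher with scaling and 50.4% with quantile normalization; on U133B these shares were 47.8% and 55.7%.

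**Figure D3:**
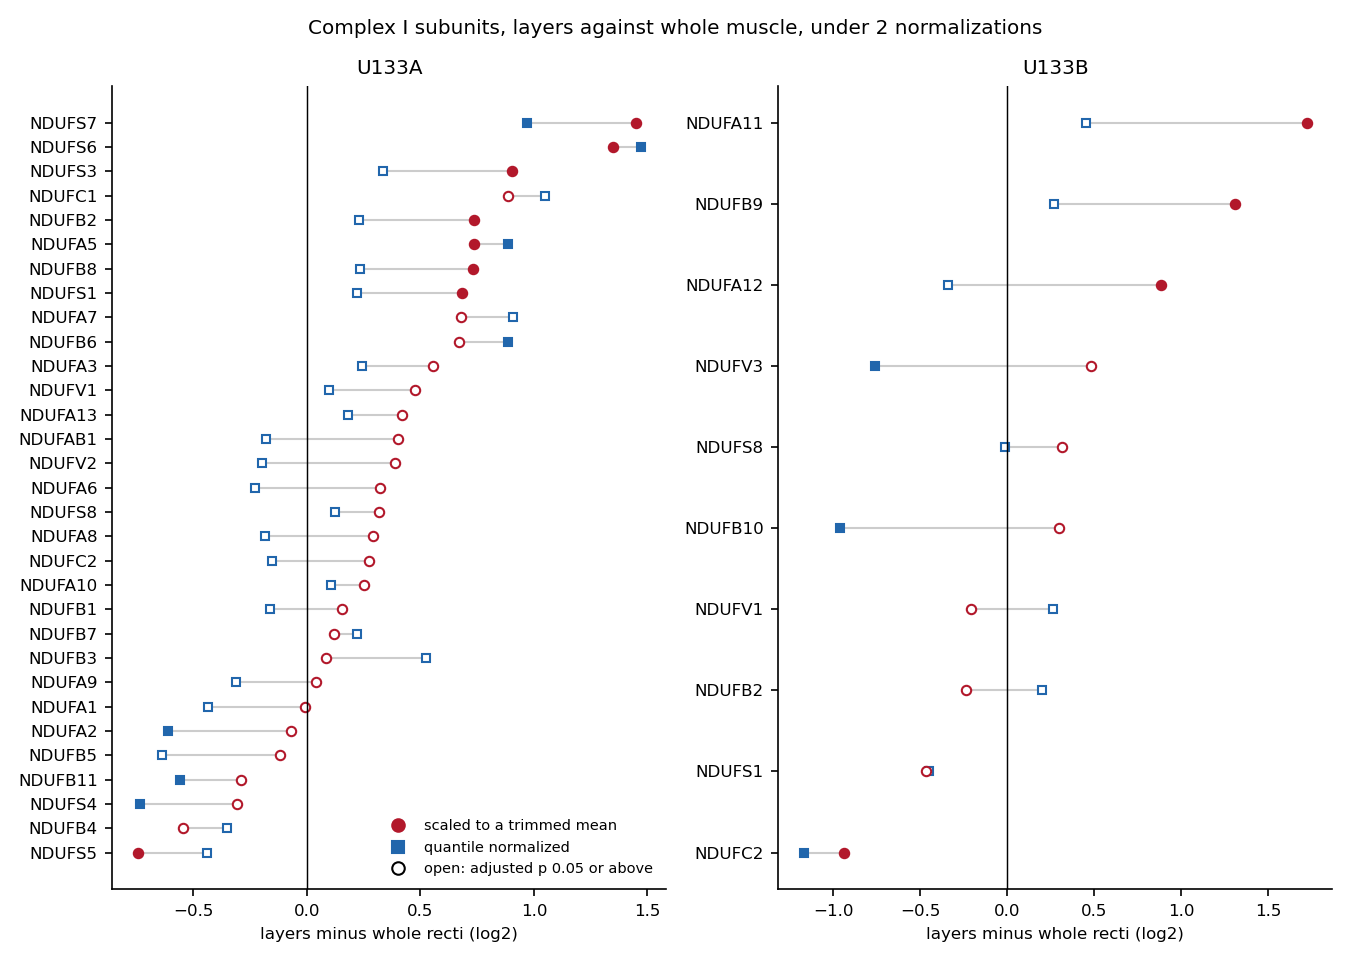
Log2 difference between the layers and whole muscle (4 arrays against 4) for each complex I gene, 31 on U133A (left) and 10 on U133B (right), with arrays scaled to a trimmed mean (red circles) or quantile normalized (blue squares); filled marks have a limma adjusted p under 0.05. NDUFS6 and NDUFS7 are past the threshold and to the right under both, NDUFC2 on U133B is past it to the left under both, and NDUFA12 moves from 0.88 to -0.34.

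The core subunits of the matrix arm were higher in the layers in 6 of 6 genes on U133A (median 0.58). Of these, 3 were past the threshold (50%, against 18.6% of all probe sets as higher). NDUFS7 read 21778, 22519, 14246 and 32763 in the layers against 7905, 7492, 8436 and 8236 in the recti. Every layer array was above every rectus array, and NDUFS7 rose 2.73-fold (1.45 ± 0.22, limma adjusted p = 0.000344), past the threshold in 16 of 16 alternatives. NDUFS3, which sits at the junction of the NADH and ubiquinone parts of the arm, read 19908 to 23730 in the layers and 10447 to 12293 in the recti. It was 1.87-fold higher (0.91 ± 0.13, limma adjusted p = 0.000337). NDUFS1, the largest subunit, was at 44304 to 62684 against 27277 to 41224; here too the arrays were apart (0.68 ± 0.17, limma adjusted p = 0.00540). NDUFS1 and NDUFS3 lost their calls with quantile normalization (0.22 and 0.33) and kept them in the other 15 alternatives. NDUFV1, at 7449 to 13511 against 6850 to 7084, was apart without passing (0.48 ± 0.19, limma adjusted p = 0.0507). NDUFV2 and NDUFS8 gave 0.39 ± 0.16 and 0.32 ± 0.20 with overlapping arrays. On U133B the 3 core genes with a kept probe set, NDUFS1, NDUFS8 and NDUFV1, gave -0.46 ± 0.39, 0.31 ± 0.36 and -0.21 ± 0.47, and none passed.

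Of the accessory subunits of the matrix arm, 2 of 7 on U133A passed as higher (28.6%, against 18.6% of all probe sets). On U133B 1 of 2 did (50% against 20.5%). On either array 0 passed as lower, against 30.1% and 22.3% of all probe sets. NDUFS6 read 4144, 4066, 5108 and 4191 in the layers against 2315, 2136, 1278 and 1360 in the recti. The layers lay above both muscles, and the medial rectus below the lateral, so that the 2.55-fold difference (1.35 ± 0.22, limma adjusted p = 0.000633) averages over unequal recti; it passed in 16 of 16 alternatives. NDUFA5 gave 2447 to 4225 against 1411 to 2294 (0.74 ± 0.22, limma adjusted p = 0.0170), and lost the call without global layer replicate 2 or lateral rectus replicate 1, with an adjusted p of 0.0536 at the most over the alternatives. NDUFA12 on U133B gave 63692 to 105887 against 36996 to 52695 (0.88 ± 0.22, limma adjusted p = 0.00726), but its sign turned with quantile normalization (-0.34). NDUFS4 was lower in mean (-0.31 ± 0.16) and NDUFA2 and NDUFA9 lay near 0 (-0.07 ± 0.15 and 0.04 ± 0.17).

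Of the accessory subunits of the membrane arm on U133A, 12 of 17 were higher in mean. Past the threshold were 2 as higher (11.8%, against 18.6% of all probe sets) and 1 as lower (5.88% against 30.1%). NDUFB8 (201227_s_at) gave 38968 to 52208 in the layers and 25468 to 28029 in the recti (0.73 ± 0.13, limma adjusted p = 0.00110). NDUFB2 (218200_s_at) gave 40979 to 63982 against 26284 to 32058 (0.74 ± 0.16, limma adjusted p = 0.00303). Both lost the call with quantile normalization alone, at 0.24 and 0.23. NDUFS5 was lower in the layers, at 1121, 1107 and 1005 on 3 arrays and 2334 on global layer replicate 2, against 1861 to 2379 in the recti (-0.74 ± 0.26, limma adjusted p = 0.0347). That array lay within the rectus range, and the call held in 7 of 15 alternatives; it was lost, among others, without orbital layer replicate 1 and without global layer replicate 1. NDUFC1 had the largest difference that did not pass, at 2185 to 5022 against 1082 to 3382 (0.89 ± 0.37, limma adjusted p = 0.0658). NDUFB4 was lower in mean without passing (-0.54 ± 0.21, limma adjusted p = 0.0502).

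On U133B, NDUFA11, a subunit near the contact of complex I with complex III, gave 47261 to 58930 in the layers and 14254 to 17886 in the recti on 228690_s_at. The 3.30-fold difference (1.72 ± 0.18, limma adjusted p = 3.45e-05) was the largest of the member probe sets kept. Below the filter and not tested, NDUFA2 on 222971_at read 112 to 390 in the layers and 496 to 2160 in the recti, and NDUFA10 on 230501_at 110 to 428 and 850 to 2776. NDUFS3 on 223808_s_at, also below the filter, ran the other way, at 592 to 1457 in the layers and 131 to 370 in the recti. NDUFB9, which anchors a copy of NDUFAB1 to the membrane arm, gave 133107 to 163632 against 41537 to 73732 (1.31 ± 0.23, limma adjusted p = 0.00108). NDUFA11 and NDUFB9 lost the call with quantile normalization, at 0.45 and 0.27. NDUFC2 on 222521_x_at fell, from 4623 to 6796 in the recti to 2165 to 4011 in the layers (-0.94 ± 0.24, limma adjusted p = 0.00881), in 16 of 16 alternatives. NDUFAB1 itself, on U133A, was at 15896 to 23024 in the layers and 12879 to 16858 in the recti (0.40 ± 0.16, limma adjusted p = 0.0610). Without orbital layer replicate 1 on U133A, 8 genes passed as higher and 0 as lower; without global layer replicate 1 on U133B the counts were 3 and 1.

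The difference between layers and recti also ran with brightness over the whole arrays. In classes of mean intensity on the log2 scale, the median over all probe sets on U133A rose from -0.57 in the dimmest class, up to 10, to 0.64 in the class starting at 15, and was 0.17 in the brightest. On U133B it was -0.32 in the dimmest class, -0.56 in the class starting at 10, 1.50 in that starting at 15, and 1.38 in the brightest. Set against all probe sets of their own brightness class, 19 of the 41 gene measurements of complex I lay above the class median and 22 below. The middle 50% of the class held 26 of them, 6 lay above it and 9 below it. NDUFS6, NDUFS7, NDUFA5, NDUFA7, NDUFB6 and NDUFC1 were above, the first of these at 1.35 where the class median was 0.07. NDUFA1, NDUFA2, NDUFB5, NDUFB11 and NDUFS4 on U133A and NDUFA12, NDUFB10, NDUFC2 and NDUFV3 on U133B were below; NDUFA12, which passed as higher, was at 0.88 where the class median was 1.38.

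**Figure D4:**
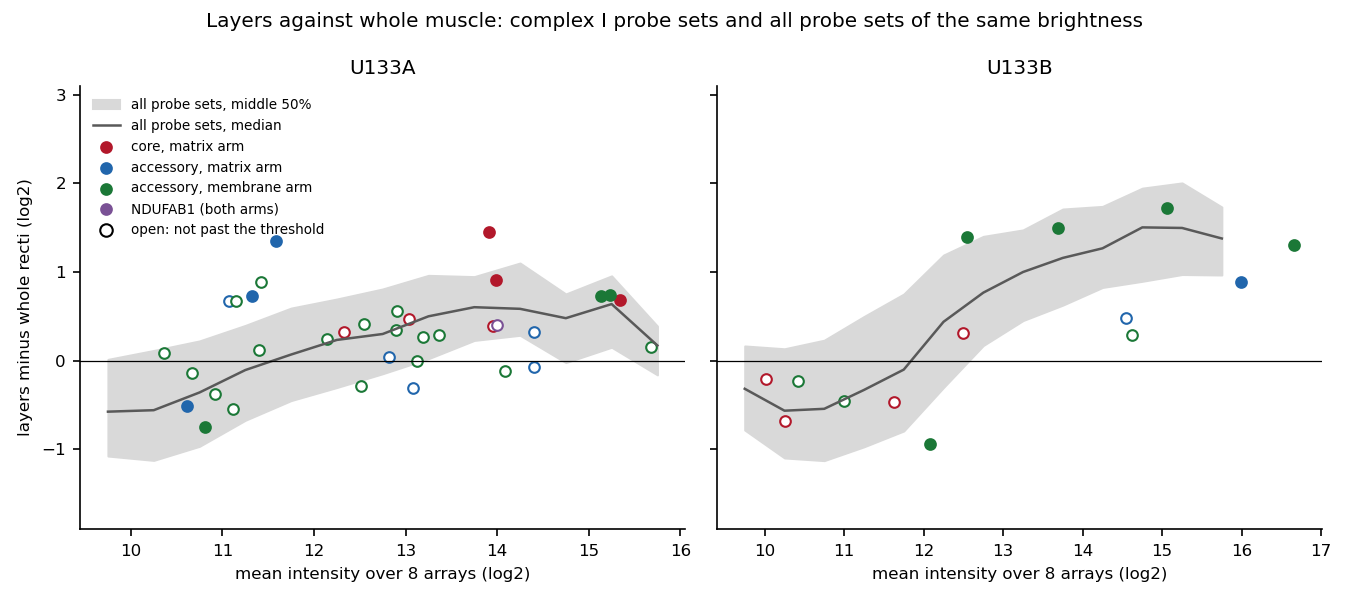
Log2 difference between layers and whole muscle against mean intensity over the 8 arrays (log2) for the complex I probe sets kept (35 on U133A, left; 14 on U133B, right); points are coloured by role and filled where the limma adjusted p was under 0.05. The line and the grey band are the median and the middle 50% of all probe sets in classes 0.5 wide on the log2 scale; most complex I points lie within the band, and NDUFS7 (1.45) and NDUFS6 (1.35) lie above it on U133A.

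Genes with several probe sets showed how far a value depends on the probes. Of the 9 genes with more than 1 kept probe set in the comparison of layers with recti, 7 had differences of opposite sign. NDUFC2 was 0.27 ± 0.19 on U133A and -0.94 ± 0.24 on U133B. NDUFA6, a subunit of the matrix arm, was 0.32 ± 0.15 on 202001_s_at and -0.51 ± 0.19 on 202000_at, the latter past the threshold as lower (limma adjusted p = 0.0435). That call held in 7 of 15 alternatives and was lost, among others, with quantile normalization (-0.14). NDUFA11 passed as higher on 228690_s_at and 225304_s_at (1.72 ± 0.18 and 1.50 ± 0.37), both without a call under quantile normalization (0.45 and 0.78), but was -0.45 ± 0.38 on 228689_at. NDUFB8 gave 0.73 ± 0.13, 0.34 ± 0.20 and -0.38 ± 0.18 on its 3 probe sets, and NDUFB2 gave 0.74 ± 0.16 and -0.14 ± 0.27 on U133A and -0.23 ± 0.31 on U133B. NDUFB10, of the intermembrane face, passed as higher on 228301_x_at (1.40 ± 0.35, limma adjusted p = 0.00695, in 16 of 16 alternatives). The brighter probe set 223112_s_at gave 14738 and 60068 on the 2 global layer arrays and did not pass (0.30 ± 0.37). With quantile normalization it passed as lower (-0.96), so that NDUFB10 was then called in both directions. Between the layers, 6 of 11 such genes had opposite signs, NDUFC2 among them (-0.61 ± 0.23 and 0.46 ± 0.32), and between the recti 6 of 11.

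NDUFA4 was long counted as a complex I subunit and was later assigned to cytochrome c oxidase. The platform annotation lists it as COXFA4, so it is no member here. It read 9347, 12368, 9516 and 13987 in the layers against 28152, 33258, 38402 and 24345 in the recti. Every layer array was below every rectus array, and it was 2.75-fold lower (-1.46 ± 0.19, limma adjusted p = 0.000154) in 16 of 16 alternatives, opposite in sign to the complex I median.

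Assembly factors build complex I and do not stay in it. Between the layers none of them passed in limma. On U133A 7 of 7 were lower in mean in the orbital layer, against 54% of all probe sets (median -0.29 against -0.04). On U133B 6 of 10 were, against 47%. Counts for this list were not made with an array left out. TMEM70, which also serves the ATP synthase, gave a mean of 7023 in the orbital layer and 15126 in the global layer on U133A (-1.13 ± 0.29, limma adjusted p = 0.255) and 2370 against 4060 on U133B (-0.74 ± 0.33). NDUFAF6 gave 14189 against 26415 on U133B (-0.90 ± 0.25, limma adjusted p = 0.429). In the layers against the recti, 1 of 7 passed as higher (14.3%, against 18.6% of all probe sets) and 2 as lower (28.6% against 30.1%) on U133A, and 4 of 10 (40% against 20.5%) and 1 of 10 (10% against 22.3%) on U133B. Assembly factors were not set against probe sets of their own brightness class, so these shares may run with brightness. TIMMDC1, a membrane-bound factor, had a mean of 16737 in the layers and 3053 in the recti (2.49 ± 0.24), and NDUFAF2, which acts on the late intermediate, 3970 and 1348 (1.64 ± 0.34). NDUFAF1 rose by 0.69 ± 0.19, NDUFAF5, which modifies NDUFS7, by 0.98 ± 0.18, and NDUFAF6 by 1.00 ± 0.25. TMEM70 on U133B (-1.30 ± 0.25), NDUFAF3 (-0.82 ± 0.23) and COA1 (-0.48 ± 0.19) were lower, though TMEM70 on U133A gave 0.06 ± 0.30. TIMMDC1, NDUFAF2, NDUFAF1 and TMEM70 held in 16 of 16 alternatives, whereas NDUFAF3, NDUFAF5 and NDUFAF6 lost the call with quantile normalization, the last with its sign turned (-0.02), and COA1 passed in 6 of 16.

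Among regulators of mitochondrial biogenesis, 0 of 8 on U133A and 0 of 6 on U133B passed between the layers. In the layers against the recti, 3 of 9 on U133A passed as higher (33.3%, against 18.6% of all probe sets) and 1 as lower (11.1% against 30.1%), and 4 of 6 (66.7% against 20.5%) and 1 of 6 (16.7% against 22.3%) on U133B. Regulators, too, were not set against probe sets of their own brightness class. PPARGC1A, the coactivator PGC-1alpha that drives respiratory genes, had a mean of 24693 in orbital and 17644 in global arrays (0.48 ± 0.23, limma adjusted p = 0.556). It had a mean of 21168 in the layers and 7978 in the recti (1.38 ± 0.18, limma adjusted p = 0.000141), in 16 of 16 alternatives. ESRRG, a nuclear receptor that works with it, was 0.97 ± 0.23, and NRF1, which binds promoters of respiratory genes, was lower (-0.84 ± 0.29, in 10 of 15 alternatives). YY1 is on both arrays with the same probe set, and its difference was 0.90 ± 0.17 on U133A and 2.16 ± 0.22 on U133B, with the 2 tables scaled separately. TFB1M, PPARGC1B and PPARA rose on U133B by 1.18 ± 0.22, 1.00 ± 0.26 and 1.97 ± 0.62, and PPARD was lower (-1.74 ± 0.57). PPARA passed in 10 and PPARD in 8 of 15 alternatives, and ESRRG, PPARGC1B and, on U133A, YY1 lost the call with quantile normalization.

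The other respiratory complexes on U133A give the setting for these values. Between the layers, complexes III and IV had 9 of 19 genes higher in the orbital layer and 10 lower (median -0.03), the ATP synthase 3 and 11 of 14 (-0.16), and complex II 1 and 2 of 3 (-0.03), with none past the threshold in limma. Between the recti their medians were -0.05, -0.11 and 0.03. In the layers against the recti, complexes III and IV had 4 of 19 genes past the threshold as higher and 1 as lower (21.1% and 5.26%, median 0.19). For the ATP synthase these were 4 and 1 of 14 (28.6% and 7.14%, median 0.19), and for complex II 2 and 0 of 3 (median 0.51), against 18.6% higher and 30.1% lower over all probe sets. With quantile normalization these medians were -0.21, -0.21 and 0.04, beside 0.11 for complex I. No test of the difference between complexes was made, and these other complexes were not set against probe sets of their own brightness class.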

How the data were processed

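Extraocular muscle RNA was measured on 16 arrays, 8 of either type. The values are linear intensities, 1 for every probe set on every array, used as the authors deposited them; the 2% trimmed mean of every array was between 1500.2 and 1500.7. The software that summarised the probes was not given in the sources used here. Symbols came from the platform annotation. Members and gene lists were chosen with earlier results of these data known.

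Arrays were brought to the same 2% trimmed mean. A floor was set at the pooled 20th percentile of either table (146.487 on U133A, 218.465 on U133B) before log2 was taken. Probe sets entered a comparison when their mean log2 over its arrays reached the pooled median (653.942 and 802.702); 68 controls a table were left out. The tables were fitted one by one with limma 3.58.1 in R 4.3.3 (eBayes with an intensity trend, 2 groups, no covariate, two-sided), p-values were adjusted by the Benjamini-Hochberg method across the probe sets that entered, and the procedure was tested on simulated data. By rule, the text names members past the threshold, up to 6 in either direction with the largest difference, core subunits, members whose probe sets have opposite signs, NDUFAB1, NDUFA4, and pathway genes past the threshold or up to 3 a list with the smallest p. Other members are named by role, with their values seen. Alternatives were quantile normalization, other floors and filters, no trend, array weights, all 4 groups in 1 fit, the replicate number as a block, and each array left out in turn.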

Additional observations from a re-analysis of the deposited data

Results flagged for a closer look

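Among 82 sets of 4 arrays checked (the 4 layer or the 4 rectus arrays of a kept gene), 5 held 1 array far from the other 3, where chance gives about 1 in 20. On lateral rectus replicate 1, NDUFA10 read 5534 beside 3587, 3768 and 3737 on the other rectus arrays, and NDUFAB1 read 16858 beside 13269, 12879 and 13347. On global layer replicate 2, NDUFB11 read 6412 beside 4820, 4833 and 5050 on the other layer arrays, and NDUFS5 read 2334 beside 1121, 1107 and 1005. On global layer replicate 1, NDUFS6 read 5108 beside 4144, 4066 and 4191. All of these probe sets are on U133A.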

How the results depend on the processing

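Of 1740 alternative values of 128 differences named by the rule, 1605 kept their direction and side of the threshold, 57 lost the threshold, 21 gained it and 57 turned sign without being past it (40 with an array left out, 17 under quantile normalization). The cause of these changes was not tested. The small number of arrays limits every comparison of 2 against 2.

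Probe sets past the threshold between the layers numbered 39 on U133A and 2 on U133B. On U133A they were 21 with quantile normalization, 0 with no filter, 12 with no trend, and 68 to 144 with an array left out. On U133B they were 0 with quantile normalization, a floor at the 5th percentile, no filter or no trend, 19 with a floor at the 40th percentile, 23 with a filter at the 75th, 10 with all 4 groups in 1 fit, and 0 to 28 with an array left out. The complex I median ran from -0.28 to 0.013 on U133A and from -0.32 to 0.057 on U133B with an array left out, and was 0.00 on U133B with no filter. With the replicate number as a block (replicate block) the counts were 92 and 26, with 0 complex I genes among them. Same-numbered arrays deviated together with a correlation of 0.26 on U133A and 0.13 on U133B over 2 pairs. The labels say nothing of what the numbers share, and 2 pairs cannot settle whether they pair the samples, so the numbers were not used as pairs in the results. Between the recti the count on U133A was 7 with the filter at the 75th percentile and 0 to 9 with an array left out (0 to 0 on U133B), and the complex I medians ran from -0.20 to -0.036 and from -0.41 to -0.02.

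For layers against recti on U133A, quantile normalization gave 4 complex I genes higher, 3 lower and a median of 0.11; no filter gave 0 lower, array weights 2 lower, and the filter at the 75th percentile 2513 probe sets in all. Leaving out an array gave 4517 to 5197 probe sets, 6 to 11 genes higher, 0 to 2 lower and a median of 0.24 to 0.39. On U133B quantile normalization gave 0 higher, 3 lower and a median of -0.18; the floor at the 40th percentile gave 3 lower, no filter 2 lower, and the filter at the 75th percentile 2799 probe sets. Leaving out an array gave 3801 to 4113 probe sets, 3 higher, 1 lower and a median of 0.06 to 0.50. Of all calls, the share that was higher was 59.5% on U133A and 62.4% on U133B with the filter at the 75th percentile, and 29.3% and 39.3% with no filter.

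Quantile normalization turned the sign of these differences. Between the layers they were NDUFS7 (-0.064), NDUFA11 on 225304_s_at (0.042) and NDUFB2 on 240391_at (-0.035). Between the recti they were NDUFV1 (0.033), NDUFB8 on 201226_at (0.020) and 201227_s_at (0.084), and COXFA4 (0.084). For layers against recti they were NDUFV2 (-0.20), NDUFAB1 (-0.18), NDUFA6 on 202001_s_at (-0.23), NDUFB2 on 218201_at (0.21) and 240391_at (0.20), NDUFC2 on 218101_s_at (-0.15), NDUFA12 (-0.34), NDUFS8 on 232169_x_at (-0.013), NDUFV1 on 227795_at (0.26) and NDUFAF6 (-0.023). Of the other members, NDUFA8 (-0.18), NDUFA9 (-0.31), NDUFB1 (-0.16), NDUFB10 (-0.96) and NDUFV3 (-0.76) also turned, the last pair past the threshold.

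Leaving out an array turned the sign of others, whose ranges follow. Between the layers these were COXFA4 (-0.38 to 0.18), NDUFAB1 (-0.38 to 0.13), NDUFB2 on 218200_s_at (-0.54 to 0.061), NDUFB8 on 201226_at (-0.16 to 0.70) and 201227_s_at (-0.19 to 0.24), NDUFS7 (-0.57 to 0.64), NDUFS8 (-0.36 to 0.52) and NDUFV1 (-0.54 to 0.32). On U133B they were NDUFA11 on 225304_s_at (-1.03 to 0.92) and 228690_s_at (-0.21 to 0.054), NDUFB2 (-0.32 to 0.39) and NDUFS1 on 236356_at (-0.082 to 0.78). Between the recti on U133A they were COXFA4 (-0.33 to 0.33), NDUFA10 (-0.56 to 0.065), NDUFA5 (-0.085 to 0.53), NDUFA7 (-1.30 to 0.14), NDUFB2 on 218201_at (-0.18 to 0.55), NDUFB3 (-0.10 to 0.72), NDUFB8 on 201226_at (-0.15 to 0.10) and 201227_s_at (-0.090 to 0.048), NDUFS1 (-0.47 to 0.12), NDUFV1 (-0.035 to 0.0093) and NDUFV2 (-0.072 to 0.19). On U133B they were NDUFA2 (-0.16 to 1.96), NDUFS1 on 236356_at (-0.16 to 0.62) and NDUFS8 (-1.05 to 0.49). For layers against recti they were NDUFB2 on 218201_at (-0.35 to 0.016) and NDUFV1 on 227795_at (-0.58 to 0.068).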
